A study of Saccharomyces cerevisiae with 16 samples.

Results

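The 76 RPL genes, which encode proteins of the large (60S) subunit of the cytoplasmic ribosome in *Saccharomyces cerevisiae*, were examined for cover by RNA polymerase II (RNAPII) peaks. Members were taken as the nuclear protein-coding open reading frames (ORFs) of the sacCer3 (R64) annotation whose symbol is RPL followed by a digit, and they number 76 of 6002 ORFs. They form 33 pairs of paralogs, marked A and B, and 10 genes without a partner (*RPL3*, *RPL5*, *RPL10*, *RPL25*, *RPL28*, *RPL29*, *RPL30*, *RPL32*, *RPL38* and *RPL39*). The mitochondrial MRPL genes and the P-stalk genes (RPP) were not members. RPL ORFs were 78 to 1662 bp long from start to stop codon, introns included, with a median of 815 bp, against 1200 bp for all ORFs, and 52 of them had an intron in the coding region.

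RNAPII ChIP-seq was performed with the 8WG16 antibody, which binds the C-terminal repeat of Rpb1, the largest RNAPII subunit. The 4 groups were *ubc9-6* after heat shock, *ubc9-6* untreated, WT after heat shock and WT untreated, each with 2 replicates, and every list of peaks had been called against its own input. WT was the W303a parent, a MATa strain that carries ura3-52 and trp1Δ2, the leucine marker leu2-3_112 and the histidine marker his3-11, and also ade2-1 with can1-100. The *ubc9-6* strain was made in that parent and is 1 strain: the mutant *ubc9-1* allele, repeated in tandem and marked with *TRP1*, sits at *UBC9*, which encodes the SUMO-conjugating enzyme, and sumoylation is reduced in this strain. Untreated cultures grew exponentially in SC medium at 30 °C, and heat shock was 12 min at 37 °C. The labels number the replicates, and the paper, which covers the untreated samples, calls them independent. What else differed between replicates is not given, so differences between the 2 lists of a group may be technical in part.

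The large subunit holds the peptidyl transferase center, where amino acids are joined, and the tunnel through which the new chain leaves. In fast-growing yeast a large part of RNAPII transcription serves ribosomal protein genes (RPGs), most of which are bound upstream by Rap1 together with Fhl1 and Ifh1, and their transcription is known to drop for a time after heat stress. SUMO is a small protein joined to lysines of many chromatin and transcription factors, Rap1 among them.

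The measurement here is the covered share of an ORF, from 0 (no base under a peak) to 1 (the whole ORF under peaks), and an ORF was called occupied in a list when the share was at least 0.5. Each list held 1451 to 1545 peaks over 23.0 to 25.4% of the nuclear genome, and 25.1 to 28.8% of all ORFs were occupied in it. Peak lists do not give read depth. The paper states a nominal number of reads per sample for the untreated samples, but the depth reached in each list is unknown. An ORF outside every peak was not detected above input by the peak caller, which does not show that RNAPII was absent. A peak in a culture cannot tell more RNAPII per cell from RNAPII in more cells. The ORF of *UBC9* had a covered share of 0.78 in *ubc9-6* heat shock replicate 1 and 0 in the other 7 lists, and *TRP1* was covered from 0.99 to 1 in the *ubc9-6* lists and from 0.87 to 0.93 in the WT lists, so the peaks cannot check the strain labels.

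To show what separates members of this family on the genome, the ORFs of *RPL41A* (chrIV:130407-130484, minus strand) and *RPL41B* (chrIV:221724-221801, minus strand) are printed here from the RefSeq R64 genome. Both encode the same short basic peptide, the smallest protein of the ribosome, and the base in capitals is the only one of 78 that differs between them. The pair is shown because the peaks over these nearly identical ORFs differed in WT.
*RPL41A*: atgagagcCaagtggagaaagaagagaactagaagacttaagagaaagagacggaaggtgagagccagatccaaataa
*RPL41B*: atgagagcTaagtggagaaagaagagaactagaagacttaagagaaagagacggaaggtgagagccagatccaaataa
Coding sequences of the 33 pairs were 78.9% (*RPL22A* and *RPL22B*) to 99.4% (*RPL1A* and *RPL1B*) identical, with a median of 93.7%, and 12 pairs encode identical proteins. Reads from the most similar stretches cannot be placed on 1 copy with certainty, and how such reads were treated is not given in the sources used here.

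The Rap1 core was searched as the letters ACCCNNACA, on both strands, in the 600 bases before each start codon. It was found before 38 of the 76 RPL ORFs (50%), 18 of 56 RPS ORFs (32.1%), which encode the small-subunit proteins, 2 of 34 MRPL ORFs (5.88%), and 387 of 5999 ORFs with a full window (6.45%). The match nearest the start codon lay 153 to 514 bases before it in the RPL windows, with a median of 313.5. Windows of 49 bases around this match are shown for the members whose peaks the results below turn on, each read toward its start codon with the match in capitals: *RPL33B* (chrXV:779847-779895, minus strand), *RPL28* (chrVII:310683-310731, plus strand), *RPL27B* (chrIV:1401415-1401463, plus strand) and *RPL11B* (chrVII:649116-649164, minus strand), which lay under some of the highest-ranking *ubc9-6* peaks, *RPL41B* (chrIV:222117-222165, minus strand), whose partner *RPL41A* had no match, and *RPL9A* (chrVII:228611-228659, minus strand), where the match is on the other strand.
*RPL33B*: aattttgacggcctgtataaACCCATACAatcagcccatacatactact
*RPL28*: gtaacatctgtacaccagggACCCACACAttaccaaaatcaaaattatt
*RPL27B*: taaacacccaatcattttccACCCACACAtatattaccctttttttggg
*RPL11B*: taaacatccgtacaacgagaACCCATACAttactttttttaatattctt
*RPL41B*: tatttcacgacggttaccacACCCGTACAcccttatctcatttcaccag
*RPL9A*: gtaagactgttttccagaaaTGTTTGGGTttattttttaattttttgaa
The Abf1 motif, which marks a smaller set of RPGs, was found in the windows of 5 RPL ORFs (6.58%), namely *RPL3*, *RPL4A*, *RPL13B*, *RPL15A* and *RPL43B*, against 17.2% of all windows. A match is a string of letters and not a measured binding site, and an ORF without the letters may still be bound. In the paper, a motif search found the Rap1 consensus in nearly all SUMO peak sequences at RPGs.

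Nearly every RPL ORF lay under a peak in *ubc9-6*, and few did in WT. In heat-shocked *ubc9-6* 75 and 72 of the 76 were occupied, and in untreated *ubc9-6* 76 and 75. In heat-shocked WT 8 and 6 were occupied, and in untreated WT 25 and 11. The 4 *ubc9-6* lists thus all lay far above the 4 WT lists, and the only list of WT that stood apart was untreated replicate 1, with 25. By group the number occupied was 73.5 ± 2.12 in *ubc9-6* heat shock, 75.5 ± 0.71 in *ubc9-6* untreated, 7.0 ± 1.41 in WT heat shock and 18.0 ± 9.90 in WT untreated (SD, n = 2 lists each). Over both treatments 62.0 more RPL ORFs were occupied in *ubc9-6* than in WT, and over both strains the number fell by 6.5 on heat shock. Without untreated WT replicate 1 it fell by 3.0, and without untreated WT replicate 2 it fell by 10. The median covered share of the RPL ORFs was 1 in every *ubc9-6* list and 0 in every WT list, while the median over all ORFs was 0 in all 8 lists.

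**Figure D1:**
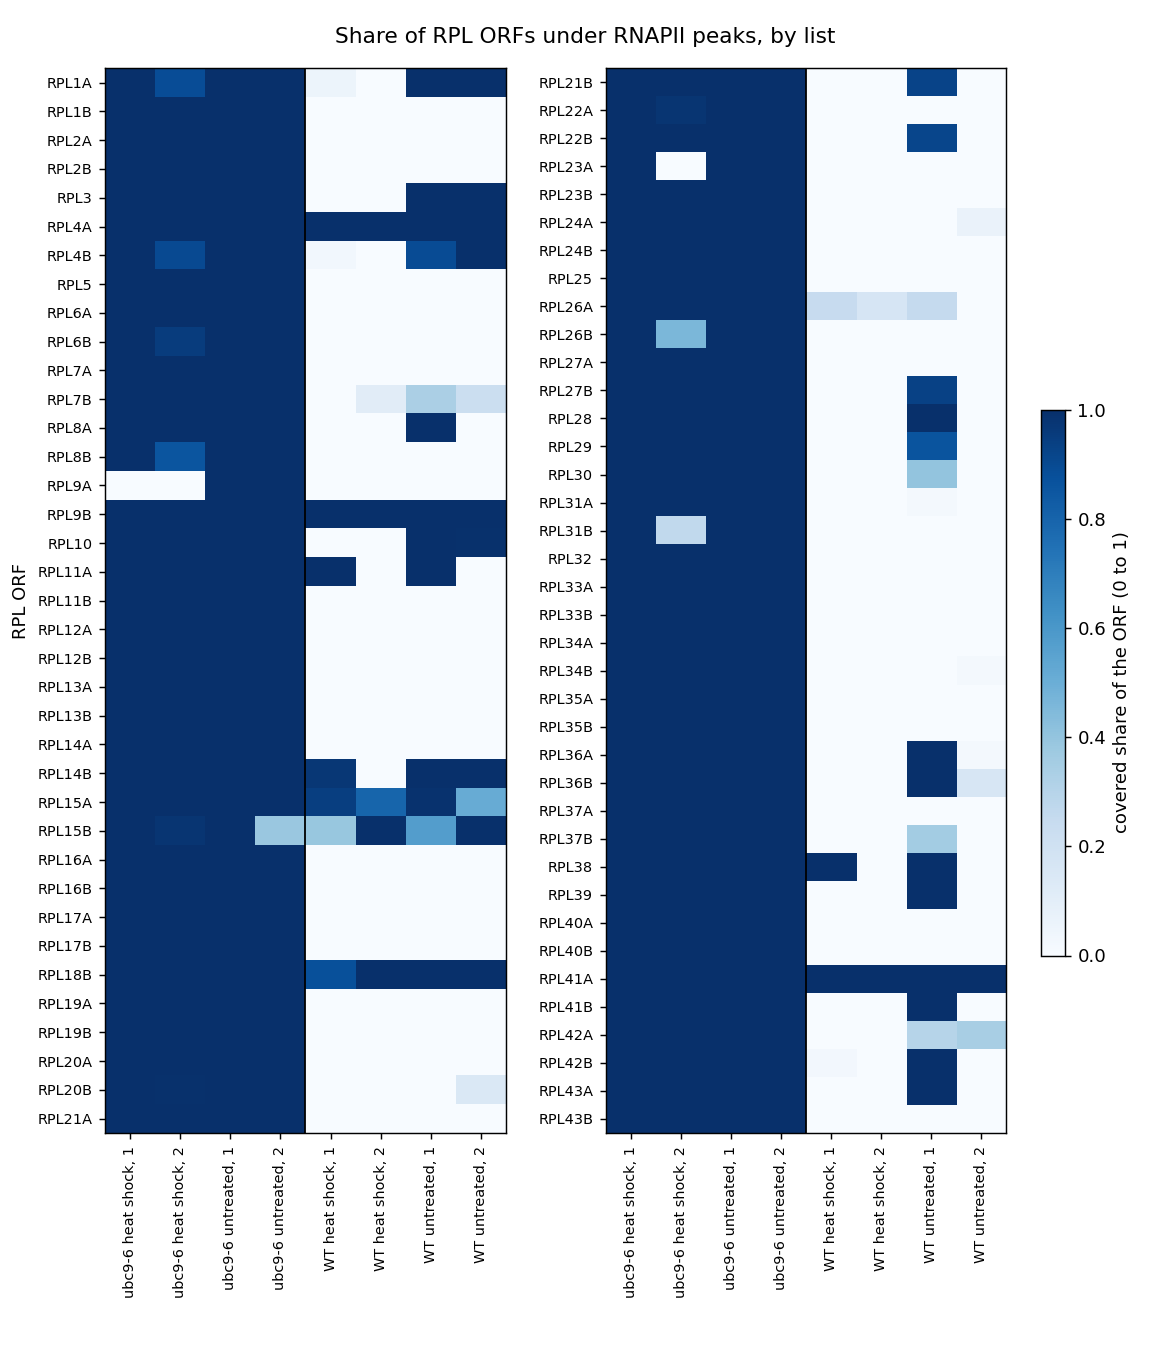
Covered share (color, 0 to 1) of 75 of the 76 RPL ORFs (rows) in the 8 peak lists (columns, with the replicate number), *ubc9-6* to the left of the line and WT to the right. The *ubc9-6* columns are almost wholly dark, and the WT columns are mostly blank; of all 76 ORFs, 71 were covered to 0.5 or more in every *ubc9-6* list, and 51 reached it in no WT list.

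An ORF was called gained when it was occupied in both lists of the first group and in neither list of the second, and lost when the reverse held. In untreated cells 51 of 76 RPL ORFs (67.1%) were gained in *ubc9-6* against WT, where 5.55% of all ORFs were gained. None was lost, where 4.35% of all ORFs were. After heat shock 63 of 76 (82.9%) were gained in *ubc9-6* against WT, with 4.98% of all ORFs gained. Again none was lost, with 2.7% of all ORFs lost. Only ORFs occupied in both WT lists could be lost. Untreated, these were 11 RPL ORFs and 1433 of all ORFs, of which 261 were lost. After heat shock they were 5 RPL ORFs and 1339 of all ORFs, of which 162 were lost. With so few RPL ORFs able to be lost, the absence of losses says little. All 51 RPL ORFs that were not occupied in either untreated WT list were gained in untreated *ubc9-6*. Over all ORFs, 4081 of 6002 were not occupied in either untreated WT list, a share near that of RPL ORFs, and 333 were gained. With 2 lists against 2 no permutation test of a single comparison can give a p below 0.333, so these calls rest on lists that do not overlap and carry no p. Of the 76 RPL ORFs, 47 were occupied in every *ubc9-6* list and in none of the WT lists, a pattern shown by 2.57% of all ORFs. No base lay under a peak in any WT list for 41 RPL ORFs, a count not made over all ORFs. In single WT lists 44 to 68 of the 76 RPL ORFs had no base under a peak, where 3109 to 3282 of all 6002 ORFs had none. No RPL ORF showed the opposite pattern of all 4 WT lists and no *ubc9-6* list, which 1.13% of all ORFs did. Only the 5 RPL ORFs occupied in all 4 WT lists could have shown it.

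Differences between replicates were small beside those between strains. The covered share of an RPL ORF differed on average by 0.04 between the heat-shocked *ubc9-6* lists, 0.01 between the untreated *ubc9-6* lists, 0.05 between the heat-shocked WT lists and 0.21 between the untreated WT lists. Between a *ubc9-6* and a WT list of the same treatment the average difference was 0.65 to 0.91. The spread in untreated WT came from 14 ORFs occupied only in replicate 1. Of these, *RPL11A* and *RPL38* were also occupied in heat-shocked WT replicate 1 and in neither replicate 2, and the other 12 were occupied in no other WT list.

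Each gene without a partner is the cell's sole source of its protein. All 10 were wholly covered in all 4 *ubc9-6* lists. *RPL5*, whose protein carries the 5S rRNA into the subunit, *RPL25*, whose protein sits at the tunnel exit, and *RPL32* had a covered share of 0 in all 4 WT lists. *RPL30*, whose protein represses the splicing of its own transcript, reached 0.40 in untreated WT replicate 1 and 0 in the other 3 WT lists. *RPL28*, *RPL29* and *RPL39*, the last of which lines the exit tunnel, were occupied in untreated WT replicate 1 only, with shares of 1, 0.86 and 1. *RPL38* had a share of 1 in replicate 1 of both WT treatments and 0 in replicate 2 of both. Only *RPL3* and *RPL10* were occupied in both untreated WT lists, and neither had a base under a peak in heat-shocked WT. Thus 6 of the 10 genes without a partner were occupied in at least 1 WT list, against 19 of the 66 paired genes, and without untreated WT replicate 1 the counts were 3 of 10 and 10 of 66.

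Exact permutation tests were run for the 35 named genes on the covered share in *ubc9-6* minus WT, with the strain labels permuted within each treatment, and the smallest two-sided p that 4 lists against 4 can give in this way is 0.0556. It was reached by 17 of the 35 genes (exact permutation test), so no gene could pass 0.05 and none did. Many of the 35 genes were named by their cover or peak rank in these same lists, so the count of 17 describes that choice. The lowest *ubc9-6* share lay above the highest WT share for 54 of the 76 RPL ORFs and for 502 of all 6002 ORFs. *RPL5* had a share of 1 in each *ubc9-6* list and 0 in each WT list (difference 1.00, exact permutation p = 0.0556, n = 4 lists each). *RPL33B* (YOR234C), *RPL25* and *RPL32* gave the same values as *RPL5*. *RPL3* averaged 1.00 in *ubc9-6* and 0.50 in WT, and its groups overlapped (exact permutation p = 0.333, n = 4 lists each).

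Cover in WT was uneven, and 5 RPL ORFs were occupied in all 8 lists: *RPL4A*, *RPL9B*, *RPL15A*, *RPL18B* and *RPL41A*. None of the 5 had the Rap1 letters in its window, while the letters were found before 9 of the 25 ORFs occupied in at least 1 WT list and 29 of the 51 occupied in none. These 25 are the ORFs of untreated WT replicate 1, and without that list the letters were found before 1 of the 13 ORFs occupied in a WT list and 37 of the other 63. *RPL4A* (YBR031W), whose protein reaches into the exit tunnel, was the only one of the 5 alone under its peak in every WT list. The mean fold over input of that peak was 1.37 and 1.36 in heat-shocked WT, against 1.79 and 2.16 in untreated WT, with no overlap between the treatments. The other 4 lay at an end of a longer peak in at least 3 of the WT lists. *RPL41A* shared a peak of 3962 to 4021 bp with *VMA1*, a subunit gene of the vacuolar proton pump, in all 4 WT lists. *RPL15A* was covered by the end of a peak of 5738 to 5882 bp over *AAT2* and *ADE16*, which encode an aspartate aminotransferase and an enzyme of purine synthesis, and its share was 0.94 and 0.80 in heat-shocked WT, against 0.99 and 0.51 in untreated WT. The shares of *RPL15A* overlapped between the treatments, and the peak ended inside the ORF, 5 to 302 bp past the start codon, in each list. *RPL18B* shared its peak with *TOS6* in 3 of the 4 WT lists, and *RPL9B* shared its peak with *SUN4* in 3.

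Many occupied RPL ORFs lay under a peak that also covered another ORF to 0.5 or more, and such a peak cannot be assigned to the RPL gene or to its neighbor. In *ubc9-6* this held for 47 of 75 and 42 of 72 occupied RPL ORFs after heat shock, and for 46 of 76 and 48 of 75 untreated. In WT it held for 4 of 8 and 5 of 6 after heat shock, and for 16 of 25 and 7 of 11 untreated. ORFs alone under their peak numbered 28 and 30 in heat-shocked *ubc9-6* and 30 and 27 in untreated *ubc9-6*, against 4 and 1 in heat-shocked WT and 9 and 4 in untreated WT.

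RPL ORFs with and without an intron also differed in WT. Of 52 RPL ORFs with an intron in the coding region 11 were occupied in at least 1 WT list (21.2%), against 14 of 24 without one (58.3%). Without untreated WT replicate 1 the counts were 2 of 52 and 11 of 24. All 52 intron-containing ORFs were occupied in heat-shocked *ubc9-6* replicate 1 and in both untreated *ubc9-6* lists, and 49 in heat-shocked *ubc9-6* replicate 2. The intron-containing ORFs had a median length of 852.5 bp, against 576 bp for the others, and the part of length in this difference was not tested.

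Along the genes, cover in *ubc9-6* followed the ORF. In untreated *ubc9-6* 42.1 and 48.8% of RPL genes were under a peak at 500 bp before the start codon, 100% just before the start codon in both lists, and 59.7 and 57.7% at 500 bp after the stop codon. In heat-shocked *ubc9-6* the values were 35.5 and 33.3% at 500 bp before, 97.9 and 90.1% just before the start codon, and 52.6 and 47.4% at 500 bp after the stop codon. Peaks in *ubc9-6* thus reached further past the stop codon than past the start codon. For ORFs alone under their peak the median reach past the start codon was 92 and 66 bp in heat-shocked *ubc9-6*, against 136.5 and 174 bp in untreated *ubc9-6*. Their median reach past the stop codon was 314.5 and 351.5 bp after heat shock, against 463 and 446 bp untreated. The ORFs alone under their peak were not the same in each list. In WT the profile had no such shape, with 22.3 to 28.9% of RPL genes under a peak at 500 bp after the stop codon in the 4 lists, and 6.26 to 14.5% just before the start codon in 3 of them. Untreated WT replicate 1 stood apart with 31.2% just before the start codon and up to 38.2% within the ORF.

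**Figure D2:**
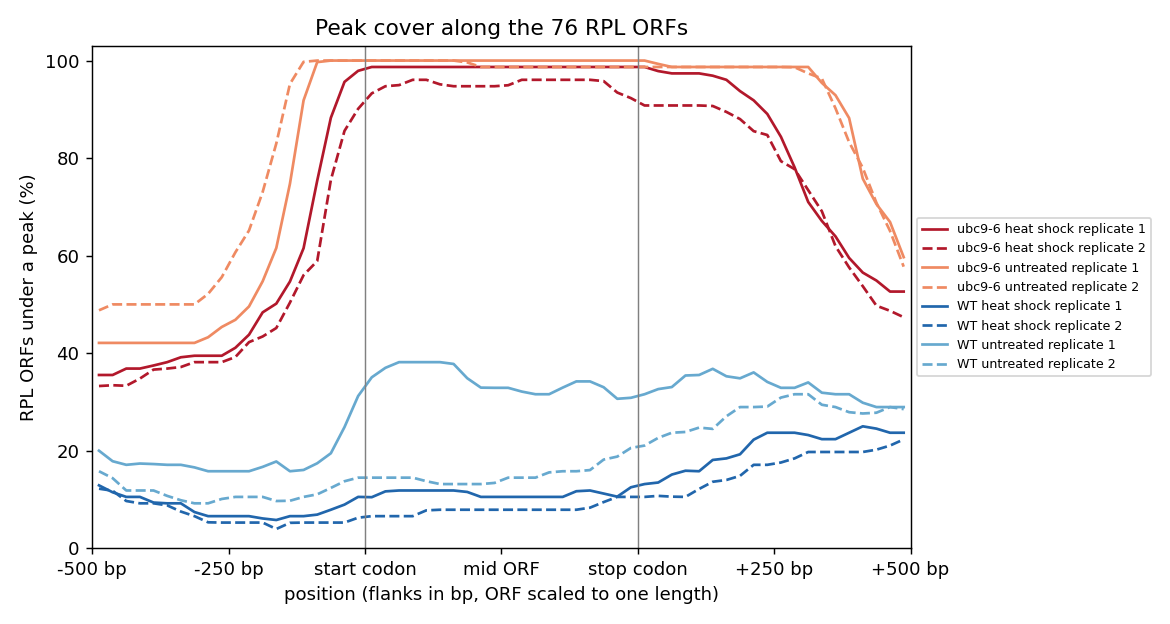
Percentage of the 76 RPL genes under a peak (vertical axis) from 500 bp before the start codon to 500 bp after the stop codon, with ORFs scaled to one length; each line is a list (solid, replicate 1; dashed, replicate 2). The 4 *ubc9-6* lines form a plateau over the ORF and fall on both sides, and the 4 WT lines stay under 40%, lowest upstream of the ORF.

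Neighbors were then compared with the RPL ORFs themselves. The nearest non-ribosomal ORF on each side of every RPL ORF was taken, which gave 149 distinct neighbors for 152 sides. In *ubc9-6* the neighbors on 36.8 and 32.2% of sides were occupied after heat shock and on 37.5 and 39.5% untreated, where 27.5 and 27.2% and 27.9 and 28.8% of all ORFs were occupied. In WT they were occupied on 23.0 and 20.4% of sides after heat shock and 29.6 and 25.7% untreated, where 26.3 and 25.1% and 28.4 and 27.5% of all ORFs were. Neighbors were thus covered more often than all ORFs in *ubc9-6* and about as often in WT. Untreated *ubc9-6* against WT had 19 of the 149 neighbors gained (12.8%, with 5.55% of all ORFs gained) and 1 lost (0.671%, with 4.35%). After heat shock 18 were gained (12.1%, with 4.98%) and 3 lost (2.01%, near the 2.7% of all ORFs). Of the occupied neighbors in *ubc9-6*, 46 to 59 in a list lay under one peak with the occupied RPL ORF.

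Several RPL ORFs sat beside covered neighbors in WT and were not occupied themselves. In WT after heat shock 29 of the 68 and 26 of the 70 RPL ORFs that were not occupied had an occupied neighbor, and in untreated WT 24 of 51 and 27 of 65 had one. Neighbors were occupied on 20.4 to 29.6% of sides in the WT lists, where 25.1 to 28.4% of all ORFs were. The same count was not made over all ORFs, so these counts do not set RPL ORFs apart. *RPL33B* (chromosome XV, 778555 to 779405) had shares of 0 in all 4 WT lists, while *IRC13*, 464 bp away on its 5′ side, was occupied in all 8 lists. In *ubc9-6* both lay under one peak that also held *SNR17A*, the gene of the U3 small nucleolar RNA (chromosome XV, 780107 to 780596). *RPL32* was free of peaks in WT, and *SCS22*, 194 bp past its stop codon, had shares of 1 and 0.54 in heat-shocked WT and 1 and 0.41 in untreated WT. *RPL34B*, chosen after its values were seen, lay between *MMF1*, with a share of 1 in all 4 WT lists, and *GPP1*, which encodes a glycerol phosphatase, with shares of 0.35 and 0.48 in heat-shocked WT and 1 and 1 in untreated WT. The share of *RPL34B* itself was 0.02 in untreated WT replicate 2 and 0 in the other WT lists, and 1 peak of 6002 to 6348 bp covered all 3 genes in every *ubc9-6* list.

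**Figure D3:**
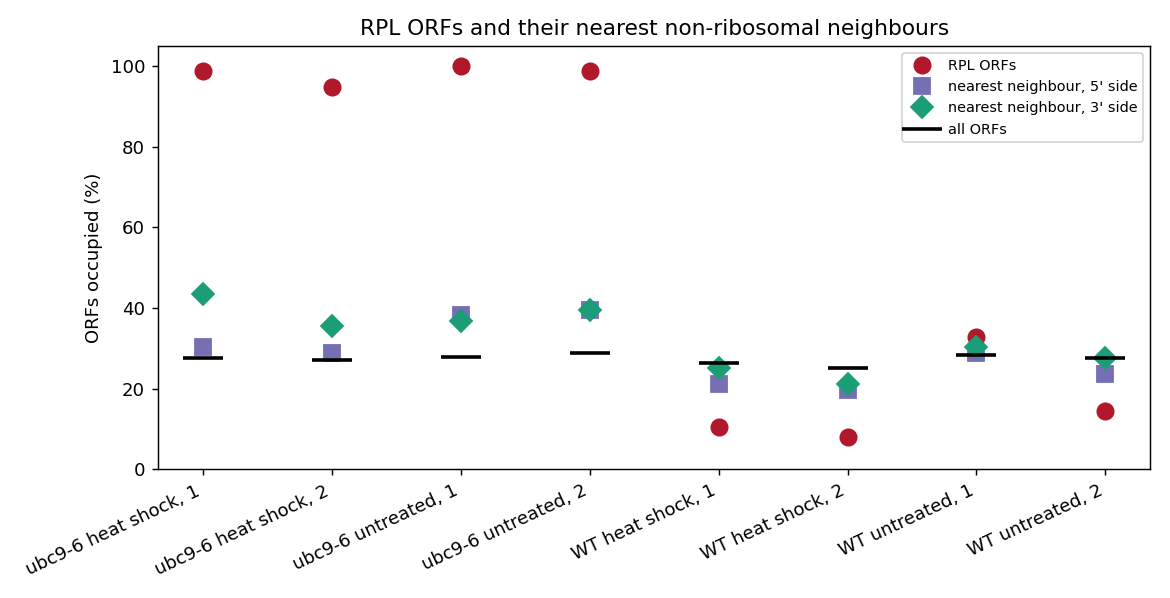
Percentage of ORFs occupied (vertical axis) in each list for the 76 RPL ORFs (circles), their nearest non-ribosomal neighbor on the 5′ side (squares) and on the 3′ side (diamonds), and all 6002 ORFs (black dashes). RPL ORFs stand at 94.7 to 100% in the *ubc9-6* lists, far over their neighbors, and below the neighbors in every WT list but untreated replicate 1.

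In 8 places an RPL ORF adjoined another RPG with no ORF in between. *RPL18B* and *RPS19B* lie on the same strand 626 bp apart, and *RPS19B* had a share of 0 in all 4 WT lists, where *RPL18B* was occupied. *RPL39* and *RPS22A* are divergent, 630 bp apart, and in untreated WT replicate 1 *RPL39* had a share of 1 and *RPS22A* a share of 0. *RPL24A* and *RPL30*, divergent and 1156 bp apart, reached 0.06 and 0.40 at most in WT. In each *ubc9-6* list all 8 places lay under one peak with both ORFs wholly covered, so the covered share could not show a difference between them there.

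Paralogs that encode nearly the same protein could differ in WT. Of 33 pairs, 4 had both copies occupied in at least 1 WT list, 11 had 1 copy, and 18 had neither. In all 4 *ubc9-6* lists both copies of 28 pairs were occupied. Among the 11 pairs with a coding identity of at least 95% the counts were 2 with both, 6 with 1 and 3 with neither, and among the other 22 pairs they were 2, 5 and 15. These counts rest largely on untreated WT replicate 1: without it 2 of the 33 pairs had both copies occupied in a WT list, 6 had 1 copy and 25 had neither, with 1, 5 and 5 among the 11 similar pairs and 1, 1 and 20 among the other 22.

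The pair with the largest mean difference was *RPL9A* and *RPL9B*, whose coding sequences are 93.8% identical. *RPL9B* (YNL067W) had a share of 1 in all 8 lists. *RPL9A* (YGL147C) had shares of 0 and 0 in heat-shocked *ubc9-6*, 1 and 1 in untreated *ubc9-6*, and 0 in all 4 WT lists. It was thus the only RPL ORF lost on heat shock in *ubc9-6*. *RPL41A* was wholly covered in all 8 lists and *RPL41B* in 5, the *ubc9-6* lists and untreated WT replicate 1. The ORFs printed above differ by a single base, and the paper gives paired reads longer than these ORFs. In all 4 WT lists *RPL41A* was covered by the peak it shared with *VMA1*. The part of read placement and of *VMA1* in the difference between the copies was not tested. In each *ubc9-6* list *RPL41B* lay under 1 peak of 6810 to 6931 bp that also covered *PPH21* and other ORFs. *RPL14A* was free of peaks in WT, and *RPL14B* was covered by 0.97 and 0 in heat-shocked WT, against 1 and 1 in untreated WT, under peaks that also held *HSE1* or *OSH7*.

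*RPL1A* and *RPL1B* encode the same protein, the mobile L1 stalk near the exit site of tRNA, from ORFs that are 99.4% identical. *RPL1A* had shares of 1 and 0.89 in heat-shocked *ubc9-6*, 1 and 1 in untreated *ubc9-6*, 0.05 and 0 in heat-shocked WT, and 1 and 1 in untreated WT. *RPL1B* had 1 in each *ubc9-6* list and 0 in each WT list. *RPL4A* and *RPL4B* differed mainly after heat shock, with 1 and 1 for *RPL4A* in heat-shocked WT and 0.03 and 0 for *RPL4B*. *RPL11A* and *RPL11B* encode a protein that binds the 5S rRNA together with Rpl5, and only *RPL11A* was occupied in WT, in replicate 1 of both treatments, under a peak of 4591 to 4701 bp with 5 other ORFs.

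Heat shock left most RPL ORFs of *ubc9-6* occupied. *RPL9A* was lost, 1 of 76 (1.32%) with 3.98% of all ORFs lost, and none was gained, with 3.28% of all ORFs gained, though no RPL ORF was free to be gained. The share of losses lay under that of all ORFs, also among ORFs occupied in both untreated *ubc9-6* lists (1 of 75, with 239 of 1541 over all ORFs). Without *ubc9-6* heat shock replicate 1 the count of lost RPL ORFs was 4, since *RPL23A*, *RPL26B* and *RPL31B* had shares of 0, 0.46 and 0.26 in replicate 2 alone and 1 in the other 3 *ubc9-6* lists. *RPL15B* was the only RPL ORF not occupied in an untreated *ubc9-6* list, with 0.39 in replicate 2, where its peak ended 378 bp before the stop codon.

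In WT, *RPL1A*, *RPL3*, *RPL4B* and *RPL10* were lost on heat shock, 4 of 76 (5.26%) with 1.75% of all ORFs lost, and none was gained, with 0.916% of all ORFs gained. These 4 were drawn from the 11 RPL ORFs occupied in both untreated WT lists. Without untreated WT replicate 2 the count was 16, and the number lost therefore rests on which untreated list is read. *RPL3* (YOR063W), whose protein reaches toward the peptidyl transferase center, had shares of 0 and 0 in heat-shocked WT, against 1 and 1 in untreated WT. *RPL10* (YLR075W), among the last proteins to join the subunit, had 0 and 0 in heat-shocked WT, against 1 and 0.99 in untreated WT. *RPL10* was alone under its peaks, which were weak, with mean folds over input of 1.48 and 1.46. The untreated WT peaks over *RPL1A* had mean folds of 1.24 and 1.35.

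The strength of the peaks over RPL ORFs in *ubc9-6* did differ between the treatments. A peak's mean fold over input had a median over the occupied RPL ORFs of 1.95 and 1.76 in heat-shocked *ubc9-6*, against 3.55 and 3.33 in untreated *ubc9-6*. In WT the medians were 1.90 and 2.31 after heat shock, over 8 and 6 ORFs, and 1.94 and 2.14 untreated, over 25 and 11 ORFs. Since fold can shift for a whole list, peaks were also ranked by fold within each list, rank 1 being the strongest. The median rank over the occupied RPL ORFs was 453 and 529.5 in heat-shocked *ubc9-6*, against 150.5 and 158 in untreated *ubc9-6*. Among the 200 strongest peaks of a list lay 12 and 11 RPL ORFs after heat shock and 50 and 44 untreated. ORFs alone under their peak gave median ranks of 455 and 568.5 after heat shock, against 128 and 128 untreated. The difference was thus also seen among ORFs with a peak of their own, though these were not the same ORFs in each list.

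Of the 71 RPL ORFs occupied in all 4 *ubc9-6* lists, 67 (94.4%) had a lower-ranking peak in both heat shock lists than in either untreated list, with 42% of the 1208 ORFs occupied in all 4 doing so. For 2, *RPL11B* and *RPL16A*, the peak ranked higher after heat shock in both lists, with 39.2% of the 1208 ORFs doing so. The ranks of *RPL24B* and *RPL29* overlapped. *RPL16A* and *RPL24B* are named because they are the exceptions, and the rule for named genes does not hold them. The peaks over *RPL16A* were not alike between the treatments. After heat shock they were 6713 and 6808 bp wide, each with 4 other ORFs. Untreated, they were 2873 and 2994 bp wide, with 1 and 2 other ORFs. The part of these other ORFs in its ranks was not tested. The 1208 ORFs had median ranks of 390 and 395.5 after heat shock and 381.5 and 386.5 untreated. RPL ORFs share peaks in a few cases, and 70 to 74 distinct peaks lay over the occupied RPL ORFs of a *ubc9-6* list.

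**Figure D4:**
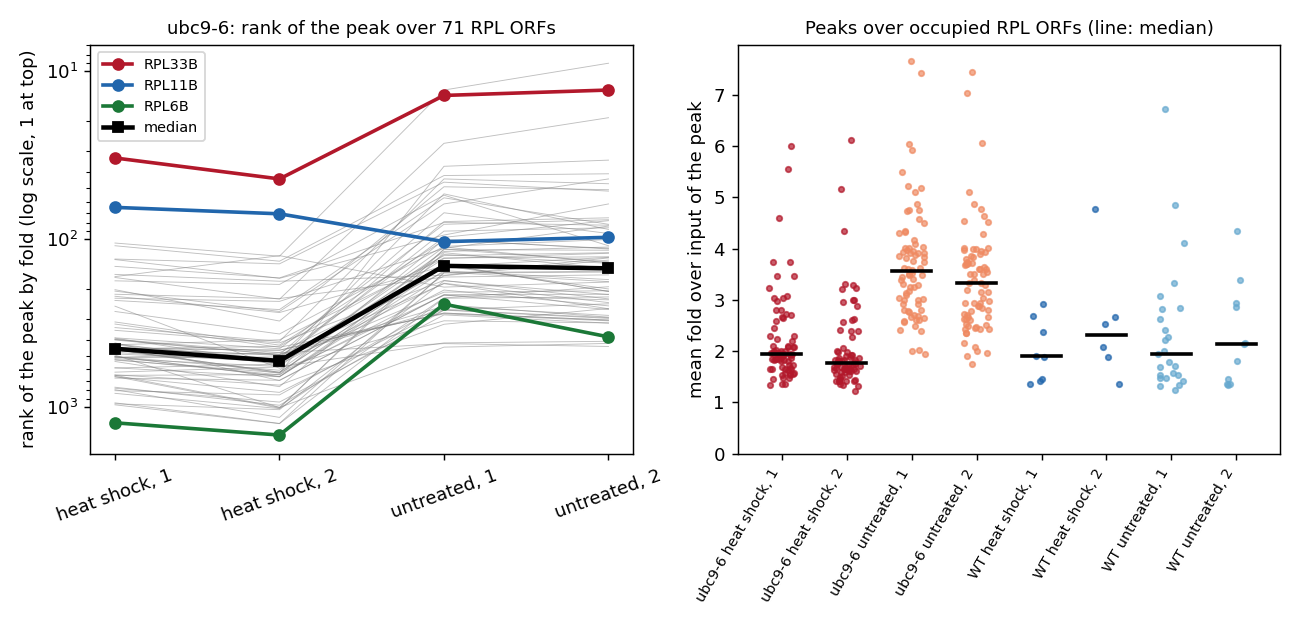
Left, rank by fold (log scale, strongest at the top) of the peak over each of the 71 RPL ORFs occupied in all 4 *ubc9-6* lists, with *RPL33B*, *RPL11B*, *RPL6B* and the median drawn thicker. Right, mean fold over input of the peak over each occupied RPL ORF in all 8 lists, with the median as a line: 1.95 and 1.76 in heat-shocked *ubc9-6*, against 3.55 and 3.33 untreated.

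Single members show both the rule and its exceptions. *RPL28* (YGL103W) ranked 106 and 127 in heat-shocked *ubc9-6*, against 13 and 9 in untreated *ubc9-6*, with mean folds of 3.74 and 3.30 against 7.66 and 7.44. Its peaks also covered *YGK1*. *RPL38* was alone under its peaks and ranked 205 and 271 after heat shock, against 62 and 44 untreated. *RPL6B*, the RPL ORF with the weakest peaks in heat-shocked *ubc9-6*, ranked 1248 and 1476 there, against 245 and 384 untreated, and is named because it stands at that end. *RPL11B* went the other way, with ranks of 65 and 71 after heat shock, against 104 and 98 untreated. Its peaks also covered *PIL1*, which encodes a structural protein of eisosomes at the plasma membrane, and in untreated *ubc9-6* also *MRP13*. The part of these neighbors in the ranks was not tested.

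The 5 RPL ORFs with the best median rank over the *ubc9-6* lists were *RPL33B* (23.5), *RPL15B* (27.5), *RPL28* (59.5), *RPL27B* (76) and *RPL11B* (84.5). All but *RPL15B* had the Rap1 letters before the start codon. Other transcribed features lay under each of these peaks: *IRC13* and *SNR17A* for *RPL33B*, *YMR122C* and *NCW1* for *RPL15B*, *YGK1* for *RPL28*, the small nucleolar RNA gene *SNR13* for *RPL27B*, and *PIL1* for *RPL11B*. The peak at *RPL15B* was strong in WT too. Its ranks were 42 and 31 in heat-shocked *ubc9-6* and 24 and 15 in untreated *ubc9-6*. In WT they were 146 and 84 after heat shock and 99 and 69 untreated. This peak covered only 0.39 of *RPL15B* in untreated *ubc9-6* replicate 2 and in heat-shocked WT replicate 1. The ORF was not occupied in those lists. *RPL27B*, of 795 bp, had mean folds of 3.73 and 3.24 in heat-shocked *ubc9-6* and 5.21 and 4.86 in untreated *ubc9-6*, and in WT it was covered only in untreated replicate 1, where its peak had a fold of 4.84 and began 54 bp past the start codon. Small nucleolar RNA genes lay under the peaks of 11 or 12 occupied RPL ORFs in each *ubc9-6* list, so they do not accompany most of them.

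Other genes of the ribosome and its assembly were read from lists of names. Of 56 RPS ORFs 39 (69.6%) were gained in untreated *ubc9-6* against WT and 46 (82.1%) after heat shock, where 5.55 and 4.98% of all ORFs were gained. None was lost in either, though only 8 and 4 RPS ORFs could be lost. For RPL ORFs the percentages were 67.1 and 82.9. Of the 5 P-stalk genes, whose products recruit elongation factors to the large subunit, *RPP0*, *RPP1A* and *RPP2B* were gained untreated and all 5 after heat shock. The 34 MRPL ORFs, which encode proteins of the mitochondrial large subunit, did not share this pattern: 0 were gained and 7 lost (20.6%, with 4.35% of all ORFs lost) in untreated *ubc9-6* against WT. After heat shock 1 was gained (*MRPL19*) and 1 lost (*MRPL37*), 2.94% each, near the 4.98% gained and 2.7% lost of all ORFs. On heat shock *RPS17B* was lost in *ubc9-6* (1 of 56, 1.79%, with 3.98% of all ORFs), with shares of 0.30 and 0, against 1 and 1 untreated, and *RPS9A*, *RPS14B* and *RPS22B* were lost in WT (3 of 56, 5.36%, with 1.75% of all ORFs).

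**Figure D5:**
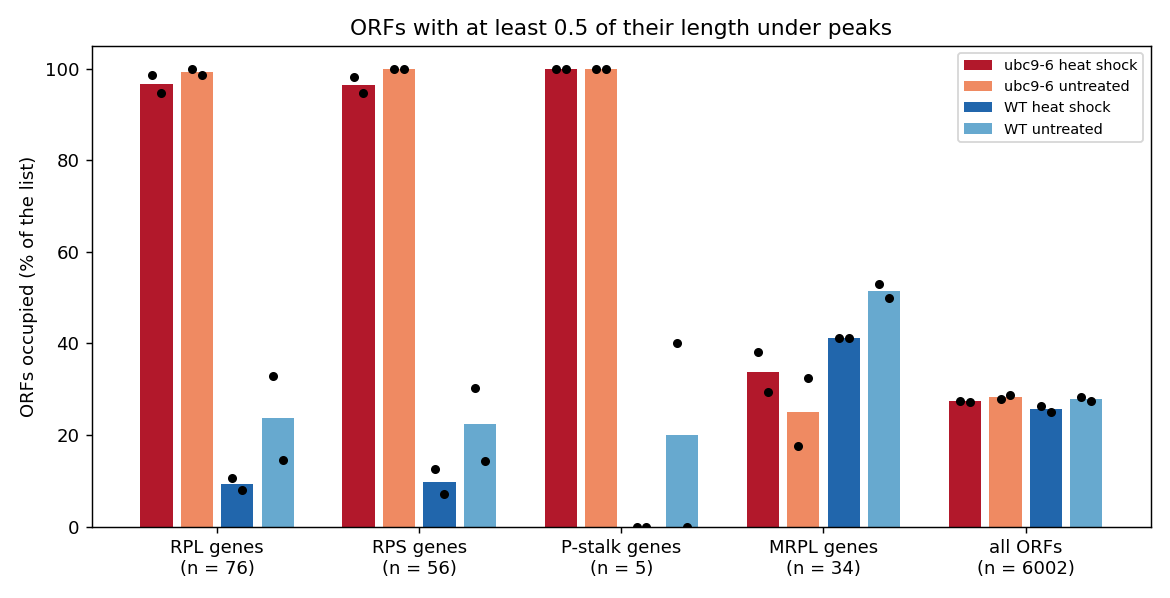
Percentage of each gene list occupied (vertical axis); bars are means and points the 2 lists of a group. RPL, RPS and P-stalk genes stand at 94.6 to 100% in the *ubc9-6* lists and at 0 to 40% in the WT lists, while MRPL genes are lower in *ubc9-6* and all ORFs change little.

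Lists of factors that serve large-subunit proteins were short, and are set beside the 25.1 to 28.8% of all ORFs occupied in a list. The 5 dedicated chaperones (*RRB1*, *ACL4*, *SYO1*, *SQT1* and *BCP1*), which guard newly made large-subunit proteins, were occupied in no list. Of 6 genes for methyltransferases that modify large-subunit proteins (*RKM1* to *RKM5* and *HPM1*), only *HPM1*, which modifies a histidine of Rpl3, was called. It was gained after heat shock in *ubc9-6* against WT (16.7% of the list, with 4.98% of all ORFs). On heat shock within *ubc9-6* it was gained too (16.7%, with 3.28% of all ORFs). Its shares were 1 and 1 in heat-shocked *ubc9-6* and 0.16 and 0.14 in untreated *ubc9-6*. In WT they were 0 and 0.04 after heat shock and 0.01 and 0.01 untreated. Among 10 regulators of RPGs (*RAP1*, *FHL1*, *IFH1*, *SFP1*, *HMO1*, *ABF1*, *CRF1*, *STB3*, *TOD6* and *DOT6*), *HMO1* and *DOT6* had a share of 1 in all 8 lists and the other 8 were occupied in none, with *RAP1*, *FHL1* and *IFH1* at 0 in every list. Thus 20% of the regulators were occupied in each list. None of the 10 regulator genes was called in any of the 4 comparisons, where 0.916 to 5.55% of all ORFs were gained or lost. Lists this short would seldom hold a called gene at such shares.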

How the data were processed

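RNAPII ChIP-seq was analysed in 8 samples, 2 replicates for each of 4 groups; their 8 input samples served the authors as controls in peak calling. Per the study's methods and the submitters' processing notes, the authors trimmed the reads, aligned them with Bowtie2 2.3.5 to sacCer3 and called broad peaks for each replicate with MACS2 2.1.1.20160309 against input, without pooling. The deposited lists hold for each peak its start and end, its mean fold enrichment over input (a ratio) and its −log10 q. No column of another series was found (0).

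ORFs were taken from the RefSeq annotation of R64, start to stop codon, and every peak lay within that build's 16 nuclear chromosomes. The covered share of each of the 6002 ORFs, occupied ORFs (a share of at least 0.5) and gained and lost ORFs were computed in Python 3.11.15 with numpy and pandas, and tested on simulated lists. Paralogs were aligned globally with Biopython. Single genes were compared by exact permutation of strain labels within treatment, two-sided. The depth reached in each list is unknown, so no counting interval can be given. Named genes were the RPL genes with no partner, the 10 pairs with the largest mean difference in share, those occupied in both lists of a WT group, those not occupied in all 4 *ubc9-6* lists, the 5 with the best median rank in *ubc9-6*, and *RPL33B*, which made 35 genes; 1 RPL gene is counted but not reported here by name. Members and lists were chosen with earlier results of these data known. Alternatives were shares of 0.25 and 0.9, peaks with a −log10 q of at least 2 or 5, the 1000 peaks with the highest −log10 q, coding exons only, leaving out each list, and a replicate block; any base as occupied, genes with no paralog of at least 95% coding identity, and counts over the WT lists without untreated replicate 1, were added after seeing the data.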

Additional observations from a re-analysis of the deposited data

How the results depend on the processing

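The calls of RPL ORFs gained in *ubc9-6* kept within 1.5 times of their counts under every alternative run: from 51 to 65 untreated and 63 to 66 after heat shock when a list was left out. Leaving out a list removes a condition of the call, so a count of gained or lost ORFs can then only stay or rise. The counts that moved further were small. On heat shock in *ubc9-6* 4 RPL ORFs were lost with a −log10 q of at least 5 and 4 with the 1000 highest peaks, against 1; in WT 2 were lost with the 1000 highest peaks and 2 among the 54 RPL genes with no paralog of at least 95% coding identity, against 4. Among those 54, occupied RPL ORFs in *ubc9-6* exceeded those in WT by 46.0, against 62.0 of 76, as fewer genes were counted. Leaving out a list gave 0 to 1 lost in *ubc9-6* against WT untreated, 0 to 0 after heat shock, 0 to 1 gained and 1 to 4 lost on heat shock in *ubc9-6*, 0 to 0 gained and 4 to 16 lost in WT, differences of 58.5 to 65.5 between strains and of -10.0 to -3.0 on heat shock. *RPL15B* in *ubc9-6* minus WT, 0.101 over all lists, was -0.0528 to 0.254 when a list was left out, and below 0 without untreated *ubc9-6* replicate 1 (-0.0528), heat-shocked WT replicate 1 (-0.0520) or untreated WT replicate 1 (-0.00650); the cause was not tested. The other 473 values of the 35 named genes did not reverse between strains. With a replicate block the counts are the same by construction (51 and 63 gained), and the smallest exact permutation p for a gene becomes 0.125. The labels do not say what a replicate number shares; deviations of same-numbered lists correlated at 0.34 over 6002 ORFs between the WT treatments and at 0.05 or less in the other comparisons. The depth reached in each list is unknown, so how many weak peaks each list missed was not tested.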
